A study of Mus musculus with 24 samples.

Results

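The MAP kinase dual-specificity phosphatases are the phosphatases that switch MAP kinases off. The 10 catalytically active genes of the family, Dusp1, Dusp2, Dusp4, Dusp5, Dusp6, Dusp7, Dusp8, Dusp9, Dusp10 and Dusp16, were taken by symbol from a table of 19880 genes measured in mouse tail fibroblasts, and all 10 were found there. They were read in 3 classes: nuclear inducible (Dusp1, Dusp2, Dusp4 and Dusp5), ERK-selective (Dusp6 and Dusp7) and JNK/p38-selective (Dusp8, Dusp10 and Dusp16). Dusp9 belongs to none of these classes here and is given on its own.

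MAP kinases are activated when an upstream kinase phosphorylates a threonine and a tyrosine in their activation loop, and these phosphatases remove both phosphates. Each binds its substrates through a docking domain, so that members differ in preference for ERK, JNK and p38 and in their place in the nucleus or cytoplasm. Several are themselves transcribed in response to MAP kinase signaling and close negative feedback loops, and in fibroblasts the nuclear members are known as genes induced early by serum and stress.

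Fibroblasts from the tails of male C57BL/6J mice were pooled and brought to 4 cell-states: immortalized (a retrovirus carrying the SV40 T antigen), quiescent (held at confluence by contact inhibition), senescent (passaged until replicative senescence) and proliferating. Each cell-state was treated for 8 h with 10 µM MG132, a proteasome inhibitor, or with 0.1% DMSO as vehicle, and 3 libraries of poly(A) RNA were sequenced per group, 24 in all. The study states 3 mice of 4 weeks as the source of the pool, so the libraries of a group are not separate animals, and p-values measure only the spread between these libraries. Immortalization rests on a single viral construct, and cells of that cell-state carry the T antigen with either treatment. The comparisons addressed how each cell-state responds to MG132, and whether cell-states that form aggresomes (quiescent and immortalized) respond differently from those that do not (senescent and proliferating).

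Levels are given as scaled TPM, the deposited TPM (transcript abundance corrected for length and library total) divided by a size factor of each library (0.625 to 1.27), and fold changes are log2 differences of scaled TPM + 1 with standard errors and adjusted p-values from limma. Between 16751 and 18161 genes were above 0 in a library, and read depth is not given by TPM. On the deposited scale the median gene moved by -0.57 with MG132 in immortalized, -0.18 in quiescent, -0.05 in senescent and -0.48 in proliferating fibroblasts (log2), so every direction below is relative to the median gene. Each library is a bulk sample, in which fewer cells of a type and less RNA per cell cannot be told apart. The fibroblast markers summed to between 13400 and 35200 TPM in each library (10 of 10 genes in the table, led by Vim and Col1a2), although Lum was at 0 in some libraries and Dcn was as low as 0.141 TPM. Summed markers of keratinocytes, endothelium, immune cells, melanocytes, muscle and Schwann cells reached at most 21.9 TPM. Mki67, a marker of cycling cells, averaged 34.1 TPM in immortalized, 14 in quiescent, 0.850 in senescent and 12.5 in proliferating DMSO libraries. Top2a, Ccnb1, Cdk1 and Mcm2 also averaged higher in quiescent than in proliferating DMSO libraries (Top2a 39.5 and 29.9 TPM), so these means did not set proliferating above quiescent fibroblasts. With DMSO, the senescence markers Cdkn2a and Cdkn2b were highest and Lmnb1 lowest in senescent fibroblasts, whereas Cdkn1a averaged 1220 TPM there and 1300 in quiescent fibroblasts. Replicates 1 and 2 of the proliferating DMSO group were above the quiescent mean of Mki67 and close to that of Top2a (41.0 and 41.2 TPM). Proliferating DMSO replicate 3 stood apart from both (Mki67 2.11 TPM against 17.5 and 17.8, and the heat shock gene Hspa1a 110 TPM against 4.87 and 7.16). Without it the number of members called stayed at 8 for MG132 in proliferating fibroblasts and was the same in each other comparison that uses it, except senescent minus proliferating with DMSO (3 in place of 4).

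MG132 raised most of the phosphatases in immortalized, quiescent and proliferating fibroblasts, but lowered more of them than it raised in senescent fibroblasts. In immortalized fibroblasts 8 members rose and 2 fell, where 53.3% of the 13489 genes tested were called, 26.6% higher and 26.6% lower. In quiescent fibroblasts 6 rose and 1 fell, beside 52.2% of all genes called, 25.3% higher and 26.9% lower. In senescent fibroblasts 2 rose and 4 fell, beside 46.1% called, 22.7% higher and 23.4% lower, so the 2 rises lay near the share of all genes. Proliferating fibroblasts had 7 members that rose and 1 that fell, beside 50.0% called, 25.2% higher and 24.8% lower, but on the deposited scale that split was 4 that rose and 2 that fell (8.38% of all genes called higher and 53.2% lower there). The median log2 fold change of the 10 members was 1.51 in immortalized, 1.08 in quiescent, -0.15 in senescent and 0.88 in proliferating fibroblasts, beside medians over all genes of 0.011, -0.023, -0.034 and -0.021 in the same order of cell-states.

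**Figure D1:**
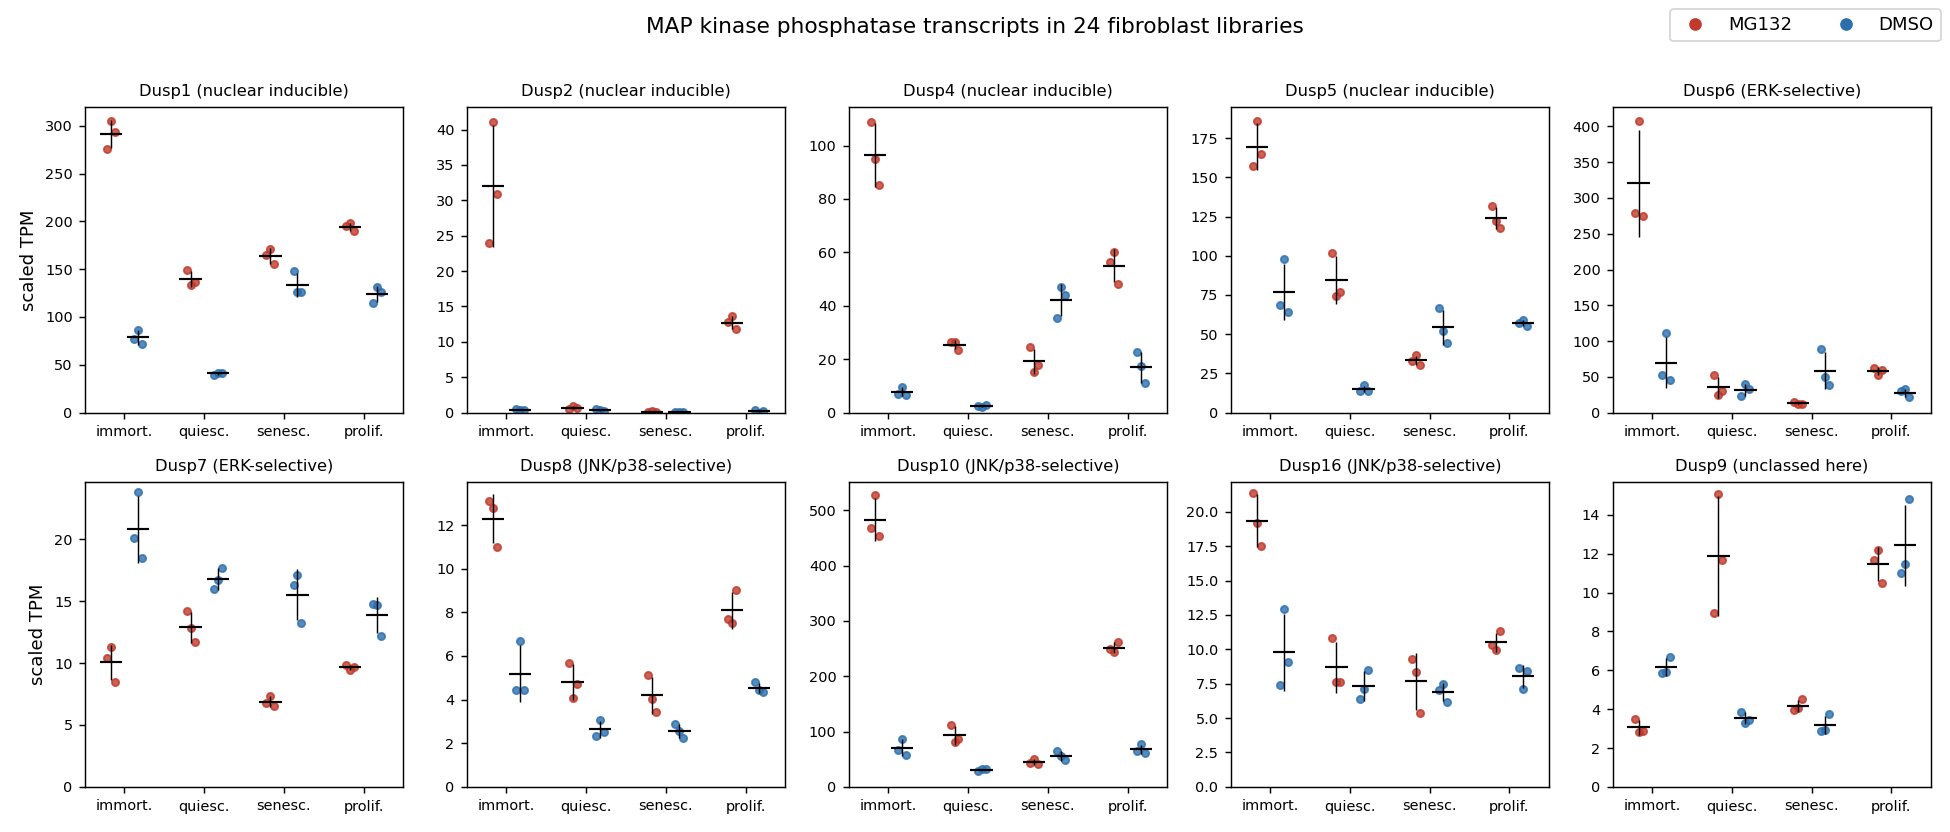
Scaled TPM of each member (y axis, linear from 0, a scale of its own per gene) in the 4 cell-states (x axis), with MG132 in red left of DMSO in blue. Points are libraries, horizontal lines are means and vertical lines are ± 1 SD of 3 libraries. The immortalized MG132 libraries are the highest for Dusp1, Dusp2, Dusp4, Dusp5, Dusp6, Dusp8, Dusp10 and Dusp16, while Dusp4, Dusp5 and Dusp6 are lower with MG132 than with DMSO in senescent fibroblasts. On the deposited scale all immortalized MG132 libraries are the highest only for Dusp2, Dusp6 and Dusp10. Mean Dusp1 is 190 TPM in immortalized and 192 TPM in senescent MG132 libraries on that scale.

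Promoters are shown for Dusp1, Dusp8 and Dusp5. Dusp1 and Dusp8 were called higher with MG132 in all 4 cell-states on scaled TPM. On the deposited scale neither was called in proliferating fibroblasts (0.05 and 0.20). With the fixed library total removed neither was called there (0.10 and 0.24), nor was Dusp1 in senescent fibroblasts (0.21). Dusp5 changed in opposite directions between cell-states, as did Dusp4, Dusp6 and Dusp9. RefSeq sequence (GRCm38.p6) was matched for 8 of the 10 members, with Dusp4 and Dusp9 not matched, and the 250 bases before each start were searched on both strands for a CRE (TGACGTCA, the site bound by CREB and ATF proteins), an AP-1 element (TGANTCA), a heat shock element core (GAANNTTC or TTCNNGAA) and a CArG box, the site of serum response factor. Stretches below run 5′ to 3′ on the strand of the gene, leave out bases in exons of coding genes, and carry the motif matches in capitals.
Dusp1, chr17:26508520-26508722, minus strand: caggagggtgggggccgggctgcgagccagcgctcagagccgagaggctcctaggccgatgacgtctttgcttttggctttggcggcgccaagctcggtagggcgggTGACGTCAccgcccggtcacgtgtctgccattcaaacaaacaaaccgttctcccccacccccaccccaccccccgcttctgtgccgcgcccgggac
Dusp8, chr7:142095285-142095534, minus strand: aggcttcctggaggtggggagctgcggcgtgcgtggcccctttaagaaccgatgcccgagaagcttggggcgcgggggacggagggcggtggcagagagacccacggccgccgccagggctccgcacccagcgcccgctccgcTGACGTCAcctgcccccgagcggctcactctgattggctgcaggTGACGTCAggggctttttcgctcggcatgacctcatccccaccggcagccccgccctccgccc
Dusp5, chr19:53528895-53529108, plus strand: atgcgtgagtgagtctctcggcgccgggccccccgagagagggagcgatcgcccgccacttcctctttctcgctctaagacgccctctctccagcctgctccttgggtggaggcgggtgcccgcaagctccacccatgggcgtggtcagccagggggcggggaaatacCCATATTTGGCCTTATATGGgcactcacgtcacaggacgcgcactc

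Dusp8 held 2 CRE matches, beginning 107 and 63 bases before its RefSeq start, and Dusp1 held 1, beginning 143 bases before. Dusp5 held 2 adjacent CArG boxes, beginning 82 and 72 bases before its start, in a stretch that the antisense gene AC137853.2 also covers. Dusp16 held 1 heat shock element core, and none of these motifs was found in the windows of Dusp2, Dusp6, Dusp7 and Dusp10. Among 32851 RefSeq promoters of the same length, 1.55% held the CRE, 6.75% the AP-1 element, 12.8% the heat shock element core and 1.47% the CArG box. These matches describe the sequence and no binding was measured. The promoters shown are those of the members with a CRE or CArG match, and Dusp6, which also changed in opposite directions, held none. A link between motif and response was not tested.

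Dusp1 (ENSMUSG00000024190, chr17:26505590-26562128, minus strand) encodes a nuclear phosphatase that prefers p38 and JNK and is induced early by stress and serum. It was called higher with MG132 in all 4 cell-states, with the larger values in immortalized and quiescent fibroblasts. In immortalized fibroblasts Dusp1 was at 276, 305 and 293 scaled TPM with MG132, against 77.1, 86.7 and 71.8 with DMSO. Quiescent libraries had 149, 133 and 137 scaled TPM of Dusp1 with MG132 and 39.2, 41.6 and 41.9 with DMSO. Groups did not overlap in either cell-state, and the log2 fold changes were 1.88 ± 0.09 (adjusted p = 3.4e-12) in immortalized and 1.75 ± 0.09 (adjusted p = 2.4e-11) in quiescent fibroblasts. Senescent libraries had 165, 171 and 155 scaled TPM of Dusp1 with MG132 and 148, 126 and 126 with DMSO. In proliferating fibroblasts Dusp1 was at 195, 198 and 190 scaled TPM with MG132, against 115, 131 and 126 with DMSO. The rise was smaller here, 0.30 ± 0.09 in senescent (adjusted p = 0.010) and 0.65 ± 0.09 in proliferating fibroblasts (adjusted p = 7.8e-06). The senescent call was lost without senescent DMSO replicate 2 (0.26, adjusted p = 0.051), with only the senescent libraries fitted (0.32, adjusted p = 0.069) and with the fixed library total removed (0.21, adjusted p = 0.15). On the deposited scale the immortalized rise was 1.11 and the proliferating fold change 0.05 (adjusted p = 0.64), with mean Dusp1 at 144 TPM in MG132 and 139 TPM in DMSO libraries. With DMSO alone, the mean Dusp1 level was 78.5 scaled TPM in immortalized, 40.9 in quiescent, 133 in senescent and 124 in proliferating fibroblasts, and of the 6 pairs only senescent and proliferating fibroblasts, neighbours in this order, were not called different. The gene span overlaps Ergic1 and Gm8225 on the other strand and AC122252.4 and AC122252.1 on the same strand. The libraries were made with a stranded protocol, but the study does not state whether reads were assigned by strand.

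Dusp4 (ENSMUSG00000031530, chr8:34807297-34819894, plus strand) encodes a nuclear phosphatase of ERK, JNK and p38. It rose with MG132 in immortalized, quiescent and proliferating fibroblasts and fell in senescent fibroblasts. Immortalized libraries had 109, 94.9 and 85.3 scaled TPM of Dusp4 with MG132, against 7.0, 9.75 and 6.63 with DMSO. In quiescent fibroblasts Dusp4 was at 26.5, 26.4 and 23.6 scaled TPM with MG132 and at 2.63, 2.26 and 2.93 with DMSO. Every MG132 library lay far above every DMSO library of its cell-state, with log2 fold changes of 3.48 ± 0.20 (adjusted p = 5.1e-11) and 2.88 ± 0.20 (adjusted p = 1.6e-09). In senescent fibroblasts the order was turned round, with Dusp4 at 24.4, 15.3 and 18 scaled TPM with MG132 and at 35.6, 47.0 and 44.0 with DMSO. Proliferating libraries had 56.5, 60.2 and 48.3 scaled TPM of Dusp4 with MG132 and 22.6, 17.3 and 11.1 with DMSO. The groups again did not overlap, and Dusp4 fell by 1.11 ± 0.20 in senescent (adjusted p = 0.00016) and rose by 1.68 ± 0.20 in proliferating fibroblasts (adjusted p = 1.6e-06, and 1.42 without proliferating DMSO replicate 3). The proliferating rise was 1.10 on the deposited scale. The response of senescent fibroblasts was lower than that of immortalized fibroblasts (immortalized minus senescent 4.59 ± 0.28, adjusted p = 3.3e-10), quiescent fibroblasts (quiescent minus senescent 3.99 ± 0.28, adjusted p = 9.8e-09) and proliferating fibroblasts (senescent minus proliferating -2.79 ± 0.28, adjusted p = 1.3e-06). With DMSO, Dusp4 averaged 7.80 scaled TPM in immortalized, 2.60 in quiescent, 42.2 in senescent and 17 in proliferating fibroblasts, and all 6 pairs of cell-states were called different. The senescent DMSO level was the highest, by 3.58 ± 0.20 over quiescent fibroblasts on the log2 scale (quiescent minus senescent -3.58, adjusted p = 5.5e-11).

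Dusp5 (ENSMUSG00000034765, chr19:53529109-53542431, plus strand) encodes a nuclear phosphatase that acts on ERK alone and is itself an ERK target gene. Like Dusp4 it rose in 3 cell-states and fell in senescent fibroblasts, but its largest rise was in quiescent fibroblasts. In immortalized fibroblasts Dusp5 was at 157, 186 and 165 scaled TPM with MG132 and at 68.7, 97.7 and 64.3 with DMSO. Quiescent libraries had 102, 74.1 and 77.0 scaled TPM of Dusp5 with MG132, against 14, 17.5 and 14 with DMSO. The log2 fold change was 1.15 ± 0.16 in immortalized (adjusted p = 4.9e-06) and 2.40 ± 0.16 in quiescent fibroblasts (adjusted p = 7e-10), and the difference, immortalized minus quiescent, was -1.25 ± 0.22 (adjusted p = 0.0003). Senescent libraries had 33.1, 36.4 and 30.3 scaled TPM of Dusp5 with MG132, against 66.7, 52 and 44.6 with DMSO. In proliferating fibroblasts Dusp5 was at 132, 122 and 118 scaled TPM with MG132 and at 56.9, 59.2 and 55.1 with DMSO. No group overlapped its partner, and Dusp5 fell by 0.68 ± 0.16 in senescent (adjusted p = 0.0016) and rose by 1.10 ± 0.16 in proliferating fibroblasts (adjusted p = 1.2e-05). The rises were smaller on the deposited scale but still called, 0.38 in immortalized and 0.51 in proliferating fibroblasts. Quiescent fibroblasts had the lowest Dusp5 with DMSO, a mean of 15.2 scaled TPM beside 76.9 in immortalized, 54.4 in senescent and 57.1 in proliferating fibroblasts, and they differed from each of the other 3 by the test. Immortalized and senescent fibroblasts differed by 0.49 ± 0.16 (adjusted p = 0.012) with overlapping libraries, a call lost without immortalized DMSO replicate 2 (0.31) or senescent DMSO replicate 3 (0.35).

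Dusp2 (ENSMUSG00000027368, chr2:127336159-127338376, plus strand) encodes a nuclear phosphatase best known from activated lymphocytes. It was close to 0 with DMSO in every cell-state and rose with MG132 in immortalized and proliferating fibroblasts. Immortalized libraries had 24, 41.1 and 30.9 scaled TPM of Dusp2 with MG132 and 0.522, 0.435 and 0.297 with DMSO. In proliferating fibroblasts Dusp2 was at 12.8, 13.6 and 11.8 scaled TPM with MG132, against 0.305, 0 and 0.239 with DMSO. The log2 fold changes, 4.51 ± 0.16 (adjusted p = 5.1e-14) and 3.55 ± 0.16 (adjusted p = 8e-12), understate changes at such low levels because 1 is added to each value. With 5 added they were 2.75 and 1.77, and with 0.1 added the proliferating value was 5.74. In quiescent fibroblasts Dusp2 was at 0.506, 0.904 and 0.593 scaled TPM with MG132 and at 0.478, 0.425 and 0.273 with DMSO, a log2 fold change of 0.26 ± 0.16 that was not called (adjusted p = 0.18). Senescent libraries stayed between 0.0425 and 0.271 scaled TPM of Dusp2 with MG132, against 0.086 to 0.132 with DMSO, and were not called (0.00 ± 0.16, adjusted p = 0.99). The response of Dusp2 thus set immortalized and proliferating fibroblasts apart from quiescent and senescent fibroblasts (immortalized minus quiescent 4.25 ± 0.22, immortalized minus senescent 4.51 ± 0.22, quiescent minus proliferating -3.29 ± 0.22 and senescent minus proliferating -3.54 ± 0.22, all with an adjusted p of 2.1e-08 or less). No pair of cell-states was called different for Dusp2 with DMSO, but at these levels the added 1 compresses differences, so this does not show equal levels. Immortalized (mean 0.418 scaled TPM) and senescent DMSO libraries (0.112) did not overlap (0.35 ± 0.16, adjusted p = 0.065). Dusp2 passed the filter of 1 TPM in 3 libraries only through the immortalized and proliferating MG132 libraries.

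Dusp6 (ENSMUSG00000019960, chr10:99263231-99267489, plus strand) encodes the main cytoplasmic phosphatase of ERK and is a feedback target of ERK signaling. It gave the largest fall of any member, in senescent fibroblasts, and rose in immortalized and proliferating fibroblasts. In immortalized fibroblasts Dusp6 was at 279, 407 and 275 scaled TPM with MG132, against 52.7, 111 and 46.2 with DMSO. Quiescent libraries had 52, 23.9 and 29.7 scaled TPM of Dusp6 with MG132 and 22.5, 39.7 and 32.3 with DMSO. The immortalized groups did not overlap (2.26 ± 0.33, adjusted p = 8.2e-06), whereas the quiescent groups did (0.12 ± 0.33, adjusted p = 0.78). Senescent libraries had 14.2, 12.2 and 12.6 scaled TPM of Dusp6 with MG132, against 88.6, 49.3 and 38.4 with DMSO. In proliferating fibroblasts Dusp6 was at 63.0, 52 and 59.1 scaled TPM with MG132 and at 29.8, 32.3 and 21.7 with DMSO. These groups did not overlap, and Dusp6 fell by 2.01 ± 0.33 in senescent (adjusted p = 5e-05) and rose by 1.04 ± 0.33 in proliferating fibroblasts (adjusted p = 0.012). The proliferating call was lost on the deposited scale (0.46, adjusted p = 0.21) and was near the threshold without proliferating DMSO replicate 3 (0.88, adjusted p = 0.049). The immortalized rise was 1.49 on the deposited scale. The senescent response was below the immortalized (immortalized minus senescent 4.27 ± 0.46, adjusted p = 5.7e-07), the quiescent (quiescent minus senescent 2.12 ± 0.46, adjusted p = 0.0026) and the proliferating response (senescent minus proliferating -3.05 ± 0.46, adjusted p = 0.00012). With DMSO, mean Dusp6 was 70.1 scaled TPM in immortalized, 31.5 in quiescent, 58.8 in senescent and 27.9 in proliferating fibroblasts. Dusp6 had the largest SE of the members, and its 3 calls with DMSO each depended on single libraries. Immortalized minus quiescent was 1.05 (0.68 without immortalized DMSO replicate 2 and 0.84 without quiescent DMSO replicate 1), immortalized minus proliferating was 1.2 (0.83 without immortalized DMSO replicate 2) and senescent minus proliferating was 0.98 (0.64 without senescent DMSO replicate 1 and 0.81 without proliferating DMSO replicate 3), none called without the library named.

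Dusp7 (ENSMUSG00000053716, chr9:106368632-106375724, plus strand) encodes the other cytoplasmic ERK phosphatase of the set, and it was the member that fell with MG132 in all 4 cell-states. Immortalized libraries had 10.4, 11.3 and 8.5 scaled TPM of Dusp7 with MG132 and 20.1, 23.8 and 18.5 with DMSO. In quiescent fibroblasts Dusp7 was at 14.2, 12.8 and 11.7 scaled TPM with MG132, against 16, 16.7 and 17.7 with DMSO. Dusp7 fell in immortalized (-0.98 ± 0.12, adjusted p = 1.4e-06) and quiescent fibroblasts (-0.36 ± 0.12, adjusted p = 0.019), with no overlap. The quiescent call was lost without quiescent MG132 replicate 3 (-0.30, adjusted p = 0.083) or quiescent DMSO replicate 3 (-0.33, adjusted p = 0.063). Senescent libraries had 6.76, 7.35 and 6.50 scaled TPM of Dusp7 with MG132 and 16.3, 17.1 and 13.2 with DMSO. In proliferating fibroblasts Dusp7 was at 9.84, 9.47 and 9.69 scaled TPM with MG132, against 14.8, 14.7 and 12.2 with DMSO. Again no group overlapped its partner, and Dusp7 fell in senescent (-1.07 ± 0.12, adjusted p = 1.1e-06) and proliferating fibroblasts (-0.47 ± 0.12, adjusted p = 0.0032). The log2 fold change of Dusp7 on the deposited scale was -1.68 in immortalized and -1.02 in proliferating fibroblasts. Its mean level with DMSO ran over a narrow range, 20.8 scaled TPM in immortalized, 16.8 in quiescent, 15.6 in senescent and 13.9 in proliferating fibroblasts. Of neighbours in that order none was called different, and immortalized fibroblasts exceeded proliferating (0.55 ± 0.12, adjusted p = 0.0018) and senescent fibroblasts (0.40 ± 0.12, adjusted p = 0.0087). The call against senescent fibroblasts was lost without immortalized DMSO replicate 2 (0.31) or senescent DMSO replicate 3 (0.29).

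Dusp10 (ENSMUSG00000039384, chr1:184013302-184075636, plus strand) encodes a phosphatase of JNK and p38 and was by level the leading member of its class. It rose with MG132 in immortalized, quiescent and proliferating fibroblasts. Immortalized libraries had 468, 527 and 454 scaled TPM of Dusp10 with MG132, against 67.1, 87.2 and 57.5 with DMSO. In quiescent fibroblasts Dusp10 was at 112, 80.6 and 86.9 scaled TPM with MG132 and at 29.5, 32.7 and 31.7 with DMSO. Proliferating libraries had 250, 243 and 262 scaled TPM of Dusp10 with MG132 and 64.2, 77.3 and 61.3 with DMSO. In these 3 cell-states the groups did not overlap, with log2 fold changes of 2.78 ± 0.15 (adjusted p = 1.6e-11), 1.53 ± 0.15 (adjusted p = 1.3e-07) and 1.89 ± 0.15 (adjusted p = 1.2e-08). The values were 2.0 in immortalized and 1.29 in proliferating fibroblasts on the deposited scale. Senescent libraries overlapped, at 43.5, 51.0 and 40.9 scaled TPM with MG132 and 64.7, 55.7 and 47.7 with DMSO (-0.30 ± 0.15, adjusted p = 0.10), and this difference was called only without senescent DMSO replicate 3 (-0.41) or with library weights (-0.27), whose estimation stopped before it converged. The response of Dusp10 in senescent fibroblasts lay below that in immortalized (immortalized minus senescent 3.08 ± 0.21, adjusted p = 1.1e-09), quiescent (quiescent minus senescent 1.83 ± 0.21, adjusted p = 3.3e-06) and proliferating fibroblasts (senescent minus proliferating -2.19 ± 0.21, adjusted p = 5.7e-07). With DMSO, Dusp10 was lower in quiescent fibroblasts (mean 31.3 scaled TPM) than in immortalized (70.6), senescent (56.0) and proliferating fibroblasts (67.6), each pair with an adjusted p of 0.00025 or less, and those 3 were not called different from each other. The gene span overlaps 1700056E22Rik on the other strand.

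Dusp8 (ENSMUSG00000037887, chr7:142079490-142095843, minus strand) encodes a phosphatase of JNK and p38 that is best known from brain and heart. Its level was low, and with Dusp1 it was called higher with MG132 in all 4 cell-states. Immortalized libraries had 13.1, 12.8 and 11 scaled TPM of Dusp8 with MG132, against 4.43, 6.70 and 4.42 with DMSO. In quiescent fibroblasts Dusp8 was at 5.66, 4.06 and 4.70 scaled TPM with MG132 and at 2.32, 3.08 and 2.53 with DMSO. The log2 fold changes were 1.12 ± 0.15 (adjusted p = 4.3e-06) and 0.67 ± 0.15 (adjusted p = 0.0012), with no overlap. Senescent libraries had 5.11, 4.03 and 3.43 scaled TPM of Dusp8 with MG132 and 2.87, 2.57 and 2.23 with DMSO. In proliferating fibroblasts Dusp8 was at 7.69, 7.53 and 9.04 scaled TPM with MG132, against 4.8, 4.44 and 4.35 with DMSO. The rises were 0.54 ± 0.15 in senescent (adjusted p = 0.0070) and 0.71 ± 0.15 in proliferating fibroblasts (adjusted p = 0.00067), again with no overlap. On the deposited scale the proliferating call was lost (0.20, adjusted p = 0.28) and the immortalized rise was 0.43. With DMSO, the levels fell into a higher pair, 5.18 scaled TPM in immortalized and 4.53 in proliferating fibroblasts, and a lower pair, 2.64 in quiescent and 2.56 in senescent fibroblasts. All 4 comparisons across these pairs were called, with sizes between 0.61 and 0.78 on the log2 scale, and neither comparison within a pair was.

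Dusp16 (ENSMUSG00000030203, chr6:134715468-134792625, minus strand) encodes a JNK-preferring phosphatase that shuttles between nucleus and cytoplasm. Its rise was called in immortalized fibroblasts. The antisense gene Gm36328 lies within its span. Immortalized libraries had 21.4, 19.2 and 17.5 scaled TPM of Dusp16 with MG132 and 7.43, 12.9 and 9.06 with DMSO, without overlap (0.94 ± 0.19, adjusted p = 0.00025). That call was lost on the deposited scale (0.22, adjusted p = 0.34). In the other cell-states the mean of Dusp16 was 8.70 scaled TPM with MG132 and 7.34 with DMSO in quiescent, 7.66 and 6.90 in senescent, and 10.5 and 8.03 in proliferating fibroblasts. The fold changes there were 0.21 ± 0.19, 0.11 ± 0.19 and 0.35 ± 0.19 (adjusted p = 0.36, 0.67 and 0.12), and on the deposited scale the proliferating value was -0.19. Proliferating libraries did not overlap, and the responses in immortalized and proliferating fibroblasts were not called different (0.59 ± 0.26, adjusted p = 0.16). No pair of cell-states was called different for Dusp16 with DMSO.

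Dusp9 (ENSMUSG00000031383, chrX:73639419-73643514, plus strand) encodes a cytoplasmic phosphatase of ERK and p38 known for its role in the placenta. It fell with MG132 in immortalized and rose in quiescent fibroblasts. Immortalized libraries had 3.51, 2.82 and 2.88 scaled TPM of Dusp9 with MG132, against 5.86, 5.91 and 6.68 with DMSO. In quiescent fibroblasts Dusp9 was at 8.93, 15.1 and 11.7 scaled TPM with MG132 and at 3.88, 3.28 and 3.43 with DMSO. Neither pair of groups overlapped, with a fall of 0.82 ± 0.15 in immortalized (adjusted p = 0.00012), a rise of 1.48 ± 0.15 in quiescent fibroblasts (adjusted p = 2.1e-07) and a difference, immortalized minus quiescent, of -2.30 ± 0.21 (adjusted p = 1.5e-07). Senescent libraries had 3.94, 4.06 and 4.54 scaled TPM of Dusp9 with MG132 and 2.90, 2.91 and 3.73 with DMSO (0.31 ± 0.15, adjusted p = 0.095). In proliferating fibroblasts Dusp9 was at 11.7, 12.2 and 10.5 scaled TPM with MG132, against 11, 11.5 and 14.8 with DMSO, and was not called (-0.10 ± 0.15, adjusted p = 0.60, and 0.02 without proliferating DMSO replicate 3), whereas on the deposited scale it was called lower (-0.65, adjusted p = 0.0015). The immortalized value was -1.39 on that scale. The DMSO level was highest in proliferating fibroblasts, a mean of 12.4 scaled TPM beside 6.15 in immortalized, 3.53 in quiescent and 3.18 in senescent fibroblasts. Only quiescent and senescent fibroblasts, the lowest neighbours, were not called different.

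**Figure D2:**
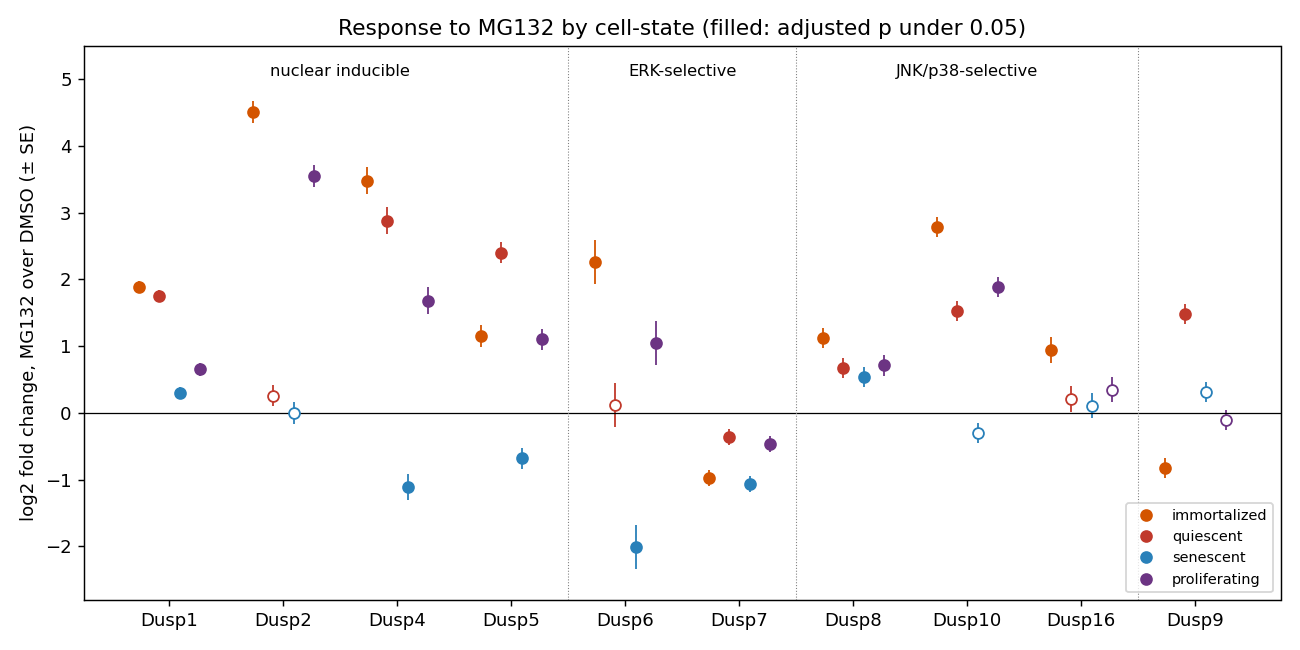
The log2 fold change of each member with MG132 over DMSO (y axis, ± SE), by class and by cell-state (colour, in the order immortalized, quiescent, senescent, proliferating from left to right within a gene). Filled points passed an adjusted p of 0.05. Dusp7 is below 0 and Dusp8 above 0 in all 4 cell-states, and the senescent points of Dusp4, Dusp5 and Dusp6 lie at -1.11, -0.68 and -2.01 while their immortalized points lie above 1.

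By class, all 4 nuclear inducible genes were called higher in immortalized (median 2.68, with 26.6% of all genes called higher) and in proliferating fibroblasts (median 1.39, 25.2%). Dusp1 on the deposited scale was not called in proliferating fibroblasts (0.05), which left 3 of the 4 there. In quiescent fibroblasts 3 rose (median 2.07, 25.3% of all genes), and in senescent fibroblasts 1 rose and 2 fell (median -0.34, 22.7% of all genes higher and 23.4% lower). These shares of all genes hold for the next classes too. In the JNK/p38-selective class 3 of 3 rose in immortalized fibroblasts (median 1.12), 2 in quiescent (0.67), 1 in senescent (0.11) and 2 in proliferating fibroblasts (0.71), and none fell. On the deposited scale Dusp16 in immortalized (0.22) and Dusp8 in proliferating fibroblasts (0.20) were not called. The 2 ERK-selective genes parted, Dusp6 rising and Dusp7 falling, in immortalized and proliferating fibroblasts, only Dusp7 passed the test in quiescent fibroblasts, and both fell in senescent fibroblasts (median -1.54). The proliferating rise of Dusp6 was not called on the deposited scale (0.46).

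The make-up of the family also differed between groups. Over the 10 genes, summed scaled TPM was 1440 ± 147 with MG132 and 346 ± 84.3 with DMSO in immortalized fibroblasts, and 417 ± 56.7 and 152 ± 13.9 in quiescent fibroblasts (mean ± SD, n = 3). In senescent fibroblasts the sum was 297 ± 18.1 with MG132 and 373 ± 54.9 with DMSO, and in proliferating fibroblasts 736 ± 11.2 and 333 ± 20.4. MG132 thus went with a higher sum in 3 cell-states and a lower mean sum in senescent fibroblasts. Nuclear inducible transcripts made up 72.7 ± 0.79% of the sum in senescent MG132 and 62.0 ± 3.97% in senescent DMSO libraries, and ERK-selective transcripts 6.70 ± 0.33% and 19.5 ± 4.28%. Dusp1 alone was 55.0 ± 0.95% of the senescent sum with MG132 and 35.9 ± 2.31% with DMSO. In quiescent fibroblasts the ERK-selective share was 11.3 ± 2.11% with MG132 and 31.5 ± 3.12% with DMSO, while the nuclear inducible share was 60.2 ± 2.20% and 38.9 ± 1.90%. In immortalized and proliferating fibroblasts it was the JNK/p38-selective share, mostly Dusp10, that was higher with MG132, 35.9 ± 1.06% against 24.8 ± 0.64% in immortalized and 36.8 ± 1.62% against 24 ± 0.83% in proliferating fibroblasts. These shares do not depend on the size factors and were not tested.

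**Figure D3:**
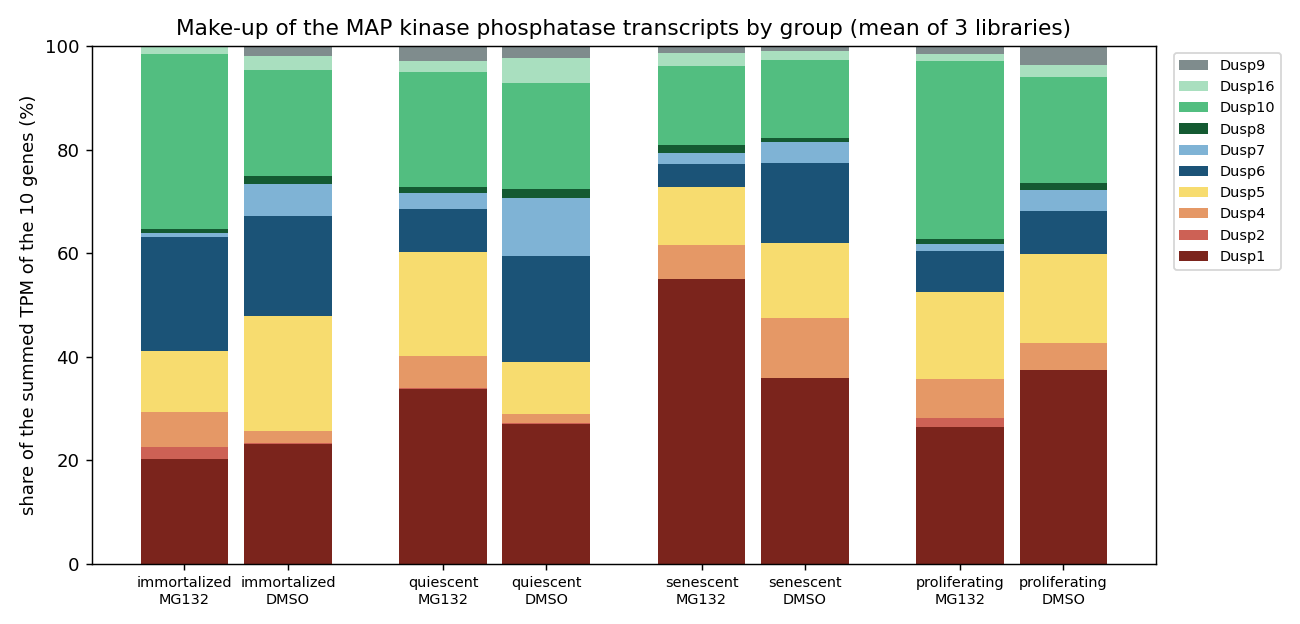
Share of the summed TPM of the 10 genes taken by each gene (y axis, percent, stacked bars, mean of 3 libraries), with MG132 left of DMSO in each cell-state. Dusp1 takes 55.0% in senescent MG132 libraries, and Dusp6 and Dusp7 (blue) together take 6.70% there and 31.5% in quiescent DMSO libraries.

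Without proteasome inhibition, members also differed between cell-states, in some comparisons about as often as all genes did. Immortalized fibroblasts were higher than quiescent fibroblasts for 7 members and lower for 0, where 50.2% of all genes were called, 25.1% higher and 25.1% lower. Against senescent fibroblasts, immortalized fibroblasts were higher for 4 members and lower for 2 (60.1% of all genes called, 29.3% higher and 30.8% lower). Against proliferating fibroblasts, immortalized fibroblasts were higher for 2 and lower for 3 (35.7%, 18.0% higher and 17.7% lower). Quiescent fibroblasts were lower than senescent fibroblasts for 4 members and higher for 0 (39.1%, 19.3% higher and 19.8% lower), and lower than proliferating fibroblasts for 6 and higher for 0 (30.2%, 15.5% higher and 14.7% lower). Senescent fibroblasts were higher than proliferating fibroblasts for 2 members, Dusp4 and Dusp6, and lower for 2, Dusp8 and Dusp9 (40.8%, 21.0% higher and 19.8% lower). The totals called for senescent against proliferating, immortalized against senescent and quiescent against senescent fibroblasts lay near these shares of all genes called. By limma's unadjusted p under 0.05 the 3 counts of 0 were 0 for immortalized below quiescent, 0 for quiescent above senescent and 1 for quiescent above proliferating fibroblasts. Quiescent fibroblasts thus held the lowest Dusp1, Dusp4, Dusp5 and Dusp10 with DMSO, each called in all 3 comparisons with the other cell-states.

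The response to MG132 was next compared between cell-states, as the difference of 2 log2 fold changes tested in the same model. These comparisons share libraries with one another and with the responses above. Markers of proteasome inhibition also differed between MG132 groups. Deposited Hspa1a averaged 11100 TPM in immortalized, 369 in quiescent, 1300 in senescent and 9380 in proliferating MG132 libraries, and Hmox1 averaged 6150, 4870, 6380 and 8790 TPM. Whether the differences between members' responses go with those of the markers was not tested. The response was higher in immortalized than in senescent fibroblasts for 8 members and lower for 1, Dusp9 (38.5% of all genes called, 18.8% higher and 19.6% lower). It was higher in immortalized than in quiescent fibroblasts for 4 members and lower for 3, Dusp5, Dusp7 and Dusp9 (31.2%, 15.6% higher and 15.6% lower). Immortalized minus proliferating was higher for 4 members and lower for 1, Dusp9 (11.6%, 6.09% higher and 5.46% lower). Quiescent fibroblasts had a higher response than senescent fibroblasts for 7 members and a lower one for 0 (20.4%, 11.2% higher and 9.19% lower). Quiescent minus proliferating was higher for 4 members and lower for 1, Dusp2 (13.1%, 6.87% higher and 6.19% lower). Senescent fibroblasts had a lower response than proliferating fibroblasts for 6 members and a higher one for 0 (18.8%, 8.64% higher and 10.2% lower), and both counts of 0 were also 0 by limma's unadjusted p under 0.05. Dusp4 was called in 5 of these 6 comparisons, and its response in immortalized and quiescent fibroblasts was not called different.

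Quiescent and immortalized fibroblasts together were also set against senescent and proliferating fibroblasts, the grouping by aggresome formation. In this contrast 6 members had a higher response and 0 a lower one (0 also by limma's unadjusted p under 0.05), where 19.7% of all genes were called, 10.4% higher and 9.29% lower. Dusp4 differed by 2.89 ± 0.20 (adjusted p = 5.1e-09), Dusp5 by 1.56 ± 0.16 (adjusted p = 7.9e-07), Dusp1 by 1.34 ± 0.09 (adjusted p = 3.6e-09) and Dusp2 by 0.61 ± 0.16 (adjusted p = 0.0098), so that all 4 nuclear inducible genes were called, although Dusp2 was not with a pseudocount of 0.1 (0.46). Dusp6 differed by 1.67 ± 0.33 (adjusted p = 0.0011) and Dusp10 by 1.36 ± 0.15 (adjusted p = 1.9e-06). The 4 cell-states did not split in 2 for each of these genes. For Dusp2 the 2 rises were in immortalized and proliferating fibroblasts, for Dusp6 the quiescent response was 0.12 and the proliferating response 1.04, and for Dusp10 the proliferating response of 1.89 was above the quiescent response of 1.53. Dusp1, Dusp4 and Dusp5 were the members for which immortalized and quiescent fibroblasts each had a higher response than senescent fibroblasts and quiescent fibroblasts a higher one than proliferating fibroblasts by the test. Immortalized minus proliferating was called for Dusp1 (1.23 ± 0.13, adjusted p = 3.3e-06) and Dusp4 (1.80 ± 0.28, adjusted p = 0.00037) but not for Dusp5. All 4 of these differences were thus called for Dusp1 and Dusp4, but that of quiescent minus proliferating was lost for Dusp4 with a pseudocount of 5 (0.53). They are differences of response and not of level, and quiescent fibroblasts had the lowest Dusp1 and Dusp4 with DMSO. With MG132, mean Dusp1 was 291 scaled TPM in immortalized, 140 in quiescent, 163 in senescent and 195 in proliferating fibroblasts. Mean Dusp4 with MG132 was 96.5, 25.5, 19.2 and 55.0 in that order.

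The genes around the phosphatases in the pathway were read from 4 lists. Their counts stand beside shares of all genes called higher and lower of 26.6% and 26.6% in immortalized, 25.3% and 26.9% in quiescent, 22.7% and 23.4% in senescent and 25.2% and 24.8% in proliferating fibroblasts. As deposited, these shares were 7.64% and 56.5%, 17.9% and 35.4%, 22.0% and 24%, and 8.38% and 53.2% in the same order. Of 20 genes induced by ERK signaling, 10 rose and 2 fell with MG132 in immortalized fibroblasts, 6 rose and 8 fell in quiescent, 3 rose and 15 fell in senescent, and 7 rose and 5 fell in proliferating fibroblasts, with median log2 fold changes of 0.78, -0.38, -1.18 and 0.16. The 6 rises in quiescent and the 7 rises and 5 falls in proliferating fibroblasts are near the shares of all genes there. As deposited, 9 rose and 8 fell in immortalized, 4 and 10 in quiescent, 3 and 15 in senescent, and 4 and 10 in proliferating fibroblasts. Phlda1 averaged 2060 scaled TPM with MG132 and 181 with DMSO in immortalized fibroblasts (3.53, adjusted p = 1.3e-10), and 151 and 125 in senescent fibroblasts (0.30, adjusted p = 0.29). Ier3, another early gene, rose in all 4 cell-states, by 2.96 in immortalized, 1.5 in quiescent, 1.04 in senescent and 2.16 in proliferating fibroblasts. Ccnd1, the cyclin that drives entry into the cell cycle, fell in all 4, with log2 fold changes of -1.98 in immortalized, -0.64 in quiescent, -0.70 in senescent and -1.83 in proliferating fibroblasts. Spred3, an inhibitor of the pathway, fell in quiescent (-1.42), senescent (-1.60) and proliferating fibroblasts (-1.07), with 0.00 in immortalized fibroblasts (adjusted p = 1), where it was called lower on the deposited scale (-0.66, adjusted p = 0.012).

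Of 12 target genes of the stress kinases, 11 rose and 0 fell in immortalized, 7 rose and 3 fell in quiescent, 6 rose and 1 fell in senescent, and 9 rose and 0 fell in proliferating fibroblasts, with medians of 2.47, 1.5, 0.48 and 1.36. The 3 of 12 that fell in quiescent fibroblasts are near the share of all genes called lower there. As deposited, the counts were 9 and 0 in immortalized, 7 and 4 in quiescent, 6 and 1 in senescent, and 7 and 1 in proliferating fibroblasts. Atf3, a stress-induced transcription factor, averaged 173 scaled TPM with MG132 and 4.8 with DMSO in senescent fibroblasts, a log2 fold change of 4.90 (adjusted p = 2.4e-09), beside 3.79 in immortalized fibroblasts. Gadd45a, an activator of the p38 cascade, rose by 2.76, 2.95, 1.59 and 2.07 in immortalized, quiescent, senescent and proliferating fibroblasts. In senescent fibroblasts, then, Atf3 and Gadd45a rose with MG132 while Dusp4, Dusp5 and Dusp6 fell.

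Among the kinases, results depended on the scale. Of 18 ERK cascade genes, 2 rose and 10 fell in immortalized, 6 rose and 5 fell in quiescent, 6 rose and 2 fell in senescent, and 2 rose and 7 fell in proliferating fibroblasts. Mapk3, which encodes ERK1, averaged 64.0 scaled TPM with MG132 and 124 with DMSO in immortalized, and 52 and 112 in proliferating fibroblasts (-0.95 and -1.05, adjusted p = 0.0018 and 0.00091). Araf fell and Map2k2 rose in all 4 cell-states, and Map2k1 rose in all but immortalized fibroblasts. As deposited, Map2k2 was not called (-0.24) and Map2k1 was called lower (-0.56) in immortalized fibroblasts. Of 23 measured genes of the JNK and p38 cascades (25 in the list), 5 rose and 8 fell in immortalized, 10 rose and 4 fell in quiescent, 8 rose and 7 fell in senescent, and 5 rose and 8 fell in proliferating fibroblasts. In immortalized and proliferating fibroblasts the JNK and p38 counts lay near the shares of all genes, as did the ERK cascade counts in quiescent fibroblasts. Map2k3, which encodes a kinase that activates p38, rose by 1.06 in immortalized, 0.70 in quiescent and 0.83 in proliferating fibroblasts, with -0.01 in senescent fibroblasts (adjusted p = 0.90). As deposited, its rises were 0.29, 0.52 and 0.23. Mapkapk3 also rose in those 3 cell-states (0.94, 0.91 and 0.74) and fell in senescent fibroblasts (-0.76). The p38 genes Mapk11 (-1.14, -0.97 and -1.17) and Mapk12 (-1.13, -0.70 and -0.70) fell in the same 3. In senescent fibroblasts Mapk12 fell (-0.87) and Mapk11 was not called (0.06). On the deposited scale both kinase lists moved down in immortalized and proliferating fibroblasts, to 0 rises and 15 falls and to 1 rise and 14 falls for the ERK cascade, and to 2 rises and 17 falls and to 1 rise and 16 falls for the JNK and p38 cascades, where the shares of all genes called also moved down.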

How the data were processed

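RNA was measured in 24 poly(A) libraries of mouse tail fibroblasts, 3 in each of 8 groups. Per the study's methods, reads were trimmed with Cutadapt and mapped with kallisto at default parameters to Ensembl transcripts of GRCm38.p6 and the ERCC spike-ins, whereas the submitters' processing notes name HISAT2, StringTie and edgeR beside cutadapt and FastQC. The authors deposited a TPM table of 19880 genes, derived from counts normalized on the spike-ins, and each library sums to 1000000, so that differences in RNA per cell are not in these values. Each column was matched to its library by title, with 0 columns of other samples.

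A size factor per library (median of ratios over genes) was taken out of the TPM before log2(value + 1). Genes had to reach 1 TPM in 3 libraries or more, which left 13489, all 10 members among them. R 4.3.3 ran limma 3.58.1 over the 8 groups, its prior variance following mean level, and Benjamini-Hochberg adjustment ran over all genes of a comparison (threshold 0.05). Summaries used Python 3.11.15 and pandas 2.3.3, and the fit was tested on simulated data. Gene positions are GENCODE's on GRCm38. All 10 members are named. From each pathway list, the genes eligible for naming were the 2 largest rises and the 2 largest falls by mean fold change among genes called the same way in at least 3 cell-states, and for each member the 3 genes with the highest correlation over group means, all at a mean of 5 TPM or more in at least 1 group. The members and lists were chosen with earlier results of these data known. Alternatives left the TPM as deposited, removed the fixed library total, set the pseudocount to 0.1 or to 5, dropped the filter or raised it to 5 TPM, and used a replicate block, no trend, library weights, only the libraries compared, or each library left out in turn.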

Additional observations from a re-analysis of the deposited data

Results flagged for a closer look

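The response to MG132 differed between cell-states by a test of the difference itself for the following members, given as differences of log2 fold changes on scaled TPM.

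For Dusp1, immortalized minus senescent was 1.58, immortalized minus proliferating 1.23, quiescent minus senescent 1.45 and quiescent minus proliferating 1.10, and quiescent and immortalized minus senescent and proliferating was 1.34. For Dusp2 the differences were 4.25 (immortalized minus quiescent), 4.51 (immortalized minus senescent), 0.97 (immortalized minus proliferating), -3.29 (quiescent minus proliferating), -3.54 (senescent minus proliferating) and 0.61 (quiescent and immortalized minus senescent and proliferating). Dusp4 gave 4.59 for immortalized minus senescent, 1.80 for immortalized minus proliferating, 3.99 for quiescent minus senescent, 1.2 for quiescent minus proliferating, -2.79 for senescent minus proliferating and 2.89 for the contrast of the paired cell-states. Dusp5 gave -1.25 for immortalized minus quiescent, 1.83 for immortalized minus senescent, 3.07 for quiescent minus senescent, 1.29 for quiescent minus proliferating, -1.78 for senescent minus proliferating and 1.56 for the contrast of the paired cell-states.

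For Dusp6 the differences were 2.15 (immortalized minus quiescent), 4.27 (immortalized minus senescent), 2.12 (quiescent minus senescent), -3.05 (senescent minus proliferating) and 1.67 (quiescent and immortalized minus senescent and proliferating). For Dusp10 they were 1.24 (immortalized minus quiescent), 3.08 (immortalized minus senescent), 0.89 (immortalized minus proliferating), 1.83 (quiescent minus senescent), -2.19 (senescent minus proliferating) and 1.36 (quiescent and immortalized minus senescent and proliferating). Dusp7 differed by -0.62 between immortalized and quiescent and by 0.70 between quiescent and senescent fibroblasts. Dusp9 differed by -2.30 between immortalized and quiescent, by -1.13 between immortalized and senescent, by 1.17 between quiescent and senescent and by 1.59 between quiescent and proliferating fibroblasts.

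Another 5 differences passed the test but lost the call when single libraries were left out. Dusp7, senescent minus proliferating, was -0.59, and -0.52 without senescent DMSO replicate 2 and -0.56 without senescent MG132 replicate 3. Dusp16, immortalized minus senescent, was 0.84, and 0.63 without senescent MG132 replicate 3 and 0.67 without immortalized DMSO replicate 1. Dusp16, immortalized minus quiescent, was 0.73, and between 0.57 and 0.75 without quiescent MG132 replicate 2 or 3, quiescent DMSO replicate 2 or 3, immortalized MG132 replicate 1 or 2, or immortalized DMSO replicate 1 or 3. Dusp8, immortalized minus senescent, was 0.59, and between 0.48 and 0.58 without immortalized MG132 replicate 1 or 2, immortalized DMSO replicate 1 or 3, senescent MG132 replicate 2 or 3, or senescent DMSO replicate 1 or 2. Dusp9, immortalized minus proliferating, was -0.71, and between -0.70 and -0.64 without immortalized MG132 replicate 2 or 3, immortalized DMSO replicate 3, proliferating MG132 replicate 1 or 2, or proliferating DMSO replicate 1 or 2. On the deposited scale these 5 gave, in the order just used, -0.07 for Dusp7, 0.12 and 0.17 for Dusp16 and -0.11 for Dusp8, none called, and Dusp9 kept its call.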

How the results depend on the processing

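Of 108 member results called, 88 kept the call in every alternative and 20 lost it in 1 or more (6 of 31 MG132 responses, 6 of 32 DMSO differences, 7 of 39 response differences and 1 of 6 in the contrast). The estimation of library weights stopped before it converged, which bears on every value given with them. With library weights the members called were 7 for quiescent minus senescent and 7 for senescent minus proliferating with DMSO (4 in the main analysis for each), and 9 for the response difference of immortalized minus proliferating (5 in the main analysis). As single libraries were left out, members called ranged from 5 to 7 for MG132 in senescent fibroblasts, from 4 to 7 for immortalized minus senescent with DMSO and from 4 to 7 for the response difference of immortalized minus proliferating. The deviations of MG132 and DMSO libraries with the same replicate number had correlations between -0.659 and 0.402. Libraries of different number were not compared, so this cannot decide whether the numbers pair libraries. A replicate block left all 108 calls in place. With the block the members called for MG132 were 10, 7, 6 and 8 in immortalized, quiescent, senescent and proliferating fibroblasts. Values that changed sign and were not called in the main analysis were: Dusp6 in quiescent fibroblasts (-0.063 as deposited, -0.041 with library weights, and -0.20 to 0.35 with a library left out), Dusp2 in senescent fibroblasts (-0.0079 with the fixed library total removed, -0.093 with a pseudocount of 0.1, and -0.090 to 0.053 with a library left out), Dusp16 in senescent fibroblasts (-0.026 with library weights, and -0.032 to 0.31 with a library left out), Dusp16 in proliferating fibroblasts (-0.19 as deposited and -0.14 with the fixed library total removed) and Dusp9 in proliferating fibroblasts (-0.18 to 0.019 with a library left out). The called response difference of Dusp8, immortalized minus senescent, was -0.11 as deposited. With library weights the genes called were 9998 (6214 in the main analysis) for MG132 in senescent fibroblasts, 8821 (5276) for quiescent minus senescent and 10060 (5502) for senescent minus proliferating with DMSO, and, for response differences, 6596 (4202) for immortalized minus quiescent, 7940 (5188) for immortalized minus senescent, 4687 (1558) for immortalized minus proliferating, 6890 (2748) for quiescent minus senescent, 4963 (1762) for quiescent minus proliferating, 6601 (2538) for senescent minus proliferating and 6069 (2660) for the contrast of the paired cell-states. With only the libraries compared they were 2447 (4819), 2694 (4077) and 3014 (5502) with DMSO for immortalized, quiescent and senescent minus proliferating, and 901 (1558) for the response difference of immortalized minus proliferating; that setting is the same as the main fit for the contrast. Without immortalized DMSO replicate 2, immortalized minus proliferating with DMSO gave 3110 genes. The response differences of quiescent and senescent minus proliferating gave 3722 and 5941 genes as deposited, and 3632 and 4462 with the fixed library total removed. The cause of these changes was not tested. A pseudocount of 0.1 ended the calls for Dusp2 in immortalized minus proliferating (0.20) and in the contrast (0.46), and a pseudocount of 5 the call for Dusp4 in quiescent minus proliferating (0.53). TPM holds no depth, so no counting interval can be given, and the lowest values, such as Dusp2 with DMSO, carry the least information.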

Other observations

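Of 10 measured atypical dual-specificity phosphatases (11 in the list), which lack the MAP kinase docking domain, 1 rose and 2 fell with MG132 in immortalized, 3 rose and 2 fell in quiescent, 0 rose and 6 fell in senescent, and 0 rose and 3 fell in proliferating fibroblasts. Over all genes 26.6%, 25.3%, 22.7% and 25.2% were called higher and 26.6%, 26.9%, 23.4% and 24.8% lower in that order of cell-states. As deposited, the counts for these phosphatases were 0 and 7 in immortalized, 3 and 4 in quiescent, 1 and 5 in senescent, and 0 and 6 in proliferating fibroblasts, where 56.5%, 35.4%, 24% and 53.2% of all genes were called lower. Dusp23 averaged 0.986 scaled TPM with MG132 and 4.00 with DMSO in senescent fibroblasts (-1.36, adjusted p = 0.00019), and Dusp19 averaged 1.81 and 5.19 in immortalized fibroblasts (-1.16, adjusted p = 5.8e-05). Of 7 measured other phosphatases of MAP kinases (10 in the list), 2 rose and 2 fell in immortalized, 5 rose and 1 fell in quiescent, 2 rose and 0 fell in senescent, and 4 rose and 2 fell in proliferating fibroblasts, but on the deposited scale 0 rose and 6 fell in both immortalized and proliferating fibroblasts.

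The genes whose pattern over the 8 group means was most like that of a member are given as a description, since the groups share cell-states and treatments. Ptgs2, the inducible cyclooxygenase, was nearest to Dusp1 (Pearson r = 0.996), with 2910 scaled TPM in immortalized MG132 and 238 in immortalized DMSO libraries, and 873 and 688 in senescent libraries. Map2k3 was nearest to Dusp10 (r = 0.995), with 216 scaled TPM in immortalized MG132 and 104 in immortalized DMSO libraries. Alcam was nearest to Dusp4 (r = 0.992), Pik3cb and Epha2 were among the nearest to Dusp5 (r = 0.991 and 0.979), and Dpysl3 was nearest to Dusp6 (r = 0.982). The nearest genes to Dusp7, Dusp8, Dusp16 and Dusp9 were Pdf (r = 0.986), Eif2s2 (r = 0.994), Arf1 (r = 0.988) and Cass4 (r = 0.951).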
